A study of Solanum lycopersicum with 10 samples.

Results

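The tomato Aux/IAA loci known as SlIAA1 to SlIAA4 and SlIAA19 were followed through a transcript survey of the response to synthetic auxin. They were taken by identifier, as 5 of the 35767 loci in the deposited table: Solyc09g083280 (SlIAA1), Solyc06g084070 (SlIAA2), Solyc09g065850 (SlIAA3), Solyc06g053840 (SlIAA4) and Solyc03g120380 (SlIAA19). The table holds identifiers without gene names, so the pairing with names is that of the literature on the family. A RefSeq gene table of another assembly (SLM_r2.1) lists the symbols IAA2, IAA3, IAA4 and IAA19 once each, on the chromosome given by the identifier (6, 9, 6 and 3), and SlIAA1 had no match there.

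All plants were of line M82 (Solanum lycopersicum). Root tips of 1 cm came from seedlings grown on plates under continuous light at 22 °C. They were either mock treated (n = 2 libraries) or moved to plates with 1 µM 2,4-D for 3 h (n = 2). Both root groups are recorded at 4 days after germination, and the duration of the root mock treatment is not given. Primordia of leaf 5, 15 of them, came from greenhouse plants 3 weeks old, 3 h after a spray with mock solution (n = 3) or with 1 µM picloram (n = 3). Both compounds are auxin analogs used as stable substitutes for the native hormone. Tissue, compound, plant age, growth conditions and mode of application changed together between the root and leaf experiments and cannot be told apart.

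Aux/IAA proteins are short-lived repressors of the auxin response. In the general model a conserved N-terminal motif recruits TOPLESS co-repressors, a degron in the middle of the protein is bound by TIR1/AFB receptors when auxin is present, and a C-terminal domain pairs with auxin response factors (ARFs), the transcription factors that Aux/IAA proteins hold inactive. Auxin triggers the destruction of the repressor and releases the ARFs. Many Aux/IAA genes are themselves early targets of ARFs, so that auxin raises the transcript of its own repressors. In tomato, lines with reduced SlIAA3 have been described with altered apical dominance and altered responses to both auxin and ethylene.

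Values are the authors' normalized counts from a kit that sequences the 3' end of each transcript, and they are not scaled by transcript length. Levels were compared between groups and not between loci. Library totals were about 2826430 to 2959480 normalized counts in root and 1827820 to 2064690 in leaf, and 1 read was worth about 0.788 to 1.23 of these units. The labelled tissues were checked with 5 loci for Rubisco small subunits and chlorophyll-binding proteins, a list chosen after the data had been examined. Their summed level was 8696 to 15513 in the leaf libraries, lower in the 3 picloram libraries (8696 to 11022) than in the 3 mock libraries (14600 to 15513). In root it was 12.7 and 14.7 in the libraries numbered 1 and 94.7 and 105 in those numbered 2, and its part in the results was not tested. The labels do not say whether the libraries of a group came from separate plants, so the p-values measure the spread between libraries, which may be technical. In bulk tissue, fewer cells of a type and less RNA per cell cannot be told apart.

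SlIAA1 and SlIAA2 rose in both tissues, although the root call of SlIAA1 held in only 15 of 21 alternatives. SlIAA4 and SlIAA19 rose in leaf primordia and were not called in root with all libraries in 1 fit. SlIAA4 was called in root when root was fitted alone. SlIAA3 was not called in either tissue with all libraries in 1 fit: its values differed widely between libraries of a group in leaf, and it was called in root when root was fitted alone. A locus was called at an adjusted p under 0.05, by limma's moderated test on log2(value + 1) with Benjamini-Hochberg adjustment over all tested loci.

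**Figure D1:**
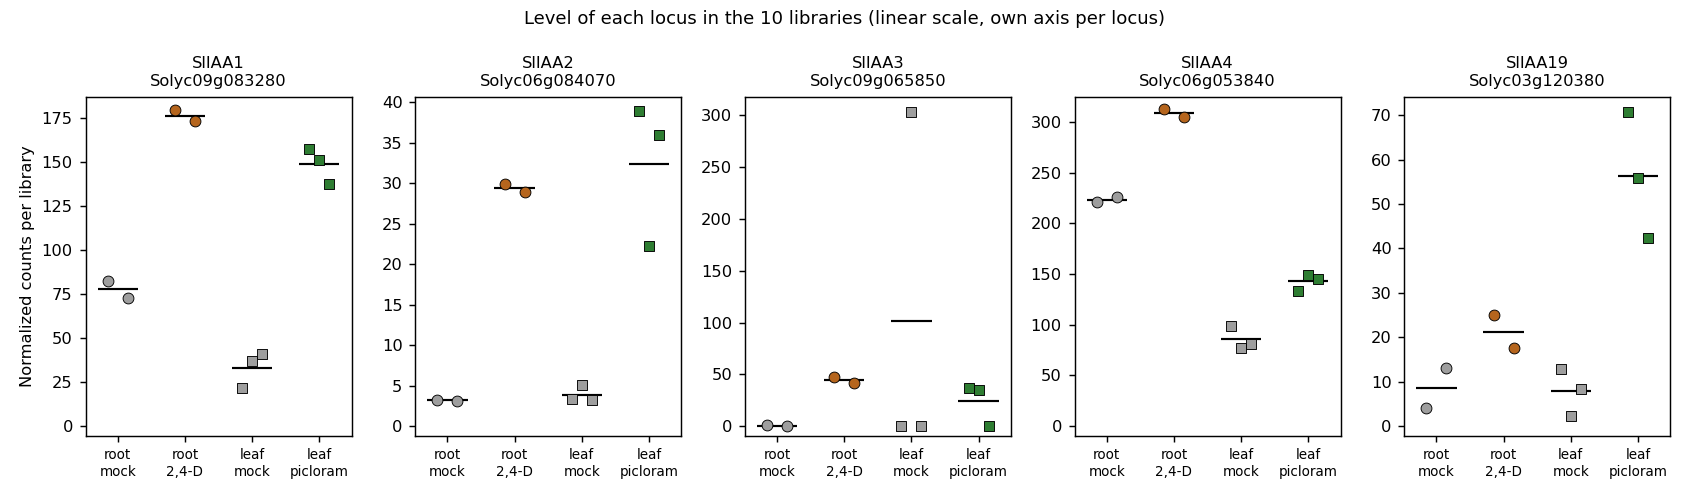
Normalized counts of the 5 loci in each of the 10 libraries on linear axes of their own, with points for libraries and a bar for the group mean. In SlIAA1, SlIAA2, SlIAA4 and SlIAA19 every treated library lies above every mock library of its tissue, while SlIAA3 is at 303 in 1 mock leaf library and at or near 0 in the remaining mock leaf libraries.

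SlIAA1 rose in both tissues. Mock root libraries held 82.6 and 72.9 normalized counts, and 2,4-D libraries 179 and 173. In leaf the 3 mock libraries held 21.9, 36.8 and 41.3, and the 3 picloram libraries 157, 151 and 138. As deposited, the 4 groups did not overlap at all, in the order mock leaf, mock root, picloram leaf and 2,4-D root. That order across tissues depends on the scaling. With equal library totals the mock difference between tissues was 0.70 on the log2 scale, in place of 1.24. The root and leaf responses were then 1.18 and 2.26, which puts picloram leaf above 2,4-D root. The treated means of the 2 tissues lay closer than the mock means, but the difference of responses was not called (limma adjusted p = 0.142). The root mean went from 77.8 ± 6.87 to 176 ± 4.22 (SD, n = 2), which was 2.27 times the mock mean. In leaf it went from 33.3 ± 10.2 to 149 ± 9.96 (SD, n = 3), or 4.46 times. The log2 fold change was 1.17 ± 0.26 in root (SE, limma adjusted p = 0.0229) and 2.17 ± 0.21 in leaf (SE, adjusted p = 0.000115). The leaf call held in all 21 alternatives. The root call ended without any 1 of the 4 root libraries, with log2 fold changes of 1.08 to 1.26. It also ended after quantile normalization (limma adjusted p = 0.0863) and without the mean-variance trend (limma adjusted p = 0.0707).

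SlIAA2 was near the limit of detection in mock tissue and went up in all 5 treated libraries. It stood at 3.24 and 3.16 normalized counts in mock root and at 29.8 and 28.9 on 2,4-D. Mock leaf held 3.32, 5.11 and 3.30, and picloram leaf 38.9, 22.2 and 35.9. On the deposited scale both treated groups lay above both mock groups, and the 2 treated groups overlapped each other. The treated mean was 9.16 times the mock mean in root and 8.28 times in leaf. Fold changes on the log2(value + 1) scale, which understates such low loci, were 2.85 ± 0.40 in root (SE, limma adjusted p = 0.00153) and 2.75 ± 0.32 in leaf (SE, adjusted p = 0.000413), and both calls held in all 21 alternatives. The locus reached the minimum for testing, a value of 10 in at least 2 libraries of a tissue, through treated libraries only, an entry that favours a rise.

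SlIAA4 moved by a smaller fold change than SlIAA1 and SlIAA2 did. Mock root libraries held 221 and 226 normalized counts and 2,4-D libraries 313 and 305. Mock leaf libraries held 98.3, 77.2 and 81.0, and picloram libraries 134, 149 and 145. As deposited, all 4 groups were apart here too, with both leaf groups below both root groups. With equal library totals the mock difference between tissues was 0.83 on the log2 scale, in place of 1.38. This order therefore depends on the scaling as well. In leaf the locus rose by 0.74 ± 0.12 on the log2 scale (SE, limma adjusted p = 0.00349), or 1.67 times the mock mean, in all 21 alternatives. In root the difference of 0.47 ± 0.15 (SE, limma adjusted p = 0.132), 1.38 times the mock mean of 223 ± 3.25 (SD, n = 2), was not called with the spread shared over both tissues. It was called when root was fitted alone (limma adjusted p = 0.0399).

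SlIAA19 had its highest level in picloram leaf. The picloram libraries held 70.7, 55.8 and 42.3 normalized counts against 12.98, 2.43 and 8.34 in mock leaf. In root the 2,4-D libraries held 25.0 and 17.5, against 4.09 and 13.1 in mock. On the deposited scale picloram leaf lay above 2,4-D root, which lay above both mock groups, and the mock groups overlapped. The leaf mean went from 7.91 ± 5.29 to 56.3 ± 14.3 (SD, n = 3), 7.11 times as high, and the log2 fold change was 2.87 ± 0.52 (SE, limma adjusted p = 0.00519). That call held in all 21 alternatives, although the minimum was again reached through treated libraries only. In root the log2 difference was 1.37 ± 0.64 (SE, limma adjusted p = 0.318). It rested on the mock libraries, which differed from each other, and was 0.63 without mock library 1 and 2.11 without mock library 2 (limma adjusted p = 0.857 and 0.236).

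SlIAA3 behaved unlike the others, and in most libraries it was low where the locus with the preceding identifier was high. It was listed at 0.82 and 0 in mock root and at 47.6 and 42.1 on 2,4-D. In leaf it was listed at 0, 303 and 0.47 in mock and at 37.0, 35.1 and 0 under picloram. Libraries of 1 group thus ran from 0 to 303, and the leaf groups overlapped fully. The preceding locus, Solyc09g065840, was high where SlIAA3 was at or near 0: it stood at 23.0 and 16.4 in mock root, 39.8 and 47.4 in mock leaf libraries 1 and 3, and 84.6 in picloram library 3. Where SlIAA3 was at 35.1 to 47.6, Solyc09g065840 was at 0 to 3.73. Over the 10 libraries, their deviations from the group means on the log2 scale correlated at r = -0.669. That value is not particular to this pair. Among loci near the other members most values were smaller in size, but SlIAA4 reached -0.785 with Solyc06g053820 and SlIAA1 0.871 with Solyc09g083270. SlIAA1 also had 0.743 with Solyc09g083290 and 0.707 with Solyc09g083260, and SlIAA2 had -0.705 with Solyc06g084060. Taken within groups, these values leave out the change between the root groups, so they cannot show whether that change was unusual. The count of either locus is uncertain, and whether reads of 1 were assigned to the other was not tested.

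Mock leaf library 2 did not follow this pattern, with 303 normalized counts for SlIAA3 and 17.0 for Solyc09g065840. It held 5 loci with a value above 100 that was also more than 3 times their highest value in any other library, SlIAA3 among them, and the other 9 libraries held 0 to 8 such loci. The sum of both loci, formed after the data had been examined, was 23.8 and 16.4 in mock root and 48.5 and 45.8 on 2,4-D. In leaf the sum was 39.8, 320 and 47.9 in mock and 40.2, 35.1 and 84.6 under picloram. SlIAA3 alone had a log2 difference of 5.08 ± 2.33 in root (SE, limma adjusted p = 0.307) and of 0.54 ± 1.90 in leaf (SE, limma adjusted p = 0.902). With root fitted alone, so that the leaf libraries did not enter the spread, SlIAA3 passed in root (limma adjusted p = 0.000501). The root sum differed by 1.21 on the log2 scale, with limma adjusted p = 0.509 over all 10 libraries, 0.123 without mock leaf library 2 and 0.0274 with root fitted alone. In leaf the sum differed by -0.78 with all libraries and by 0.17 without mock leaf library 2 (limma adjusted p = 0.501 and 0.837).

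**Figure D2:**
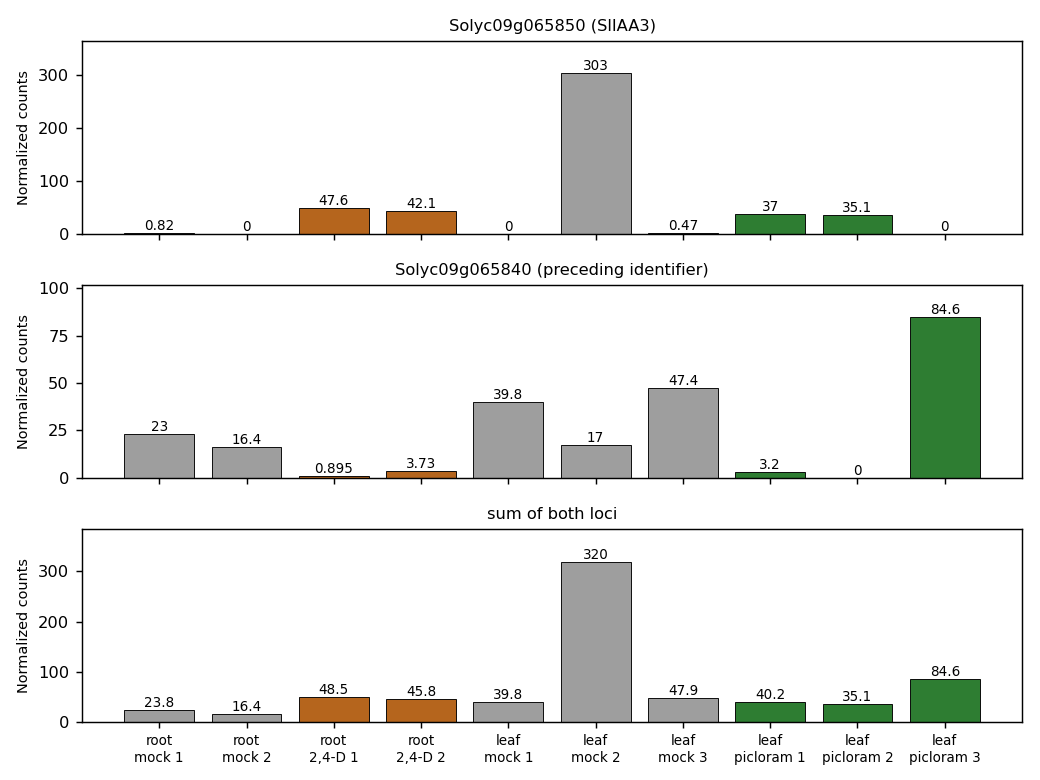
Normalized counts of SlIAA3 (Solyc09g065850), of the preceding locus Solyc09g065840 and of their sum, with 1 bar per library and an axis from 0 in each panel. Bars of the upper panels alternate, and mock leaf library 2 stands alone at 303 in the first and 320 in the sum.

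As a group, 2 of the 5 loci rose in root and 0 fell, against 3.48% of 12664 tested loci called higher and 1.07% called lower (4.55% in all). In leaf 4 of the 5 rose and 0 fell, against 4.89% of 14410 called higher and 5.26% called lower (10.2% in all). The members' median log2 fold change was 1.37 in root and 2.17 in leaf, beside -0.02 and 0.00 over all tested loci. Each median is the value of 1 member, SlIAA19 in root, which was not called there, and SlIAA1 in leaf. SlIAA2, SlIAA3 and SlIAA19 would not have met the minimum on mock libraries in either tissue, so these counts lean towards a rise. SlIAA1 and SlIAA4 met it on mock libraries alone. All 5 loci in root and 4 in leaf had every treated library above every mock library, which held for 26.4% of tested loci in root and 13.9% in leaf. Only 52 of 14410 loci had a larger leaf fold change than SlIAA2 and only 41 than SlIAA19, while 133 exceeded SlIAA1 and 1378 exceeded SlIAA4. In root 160 of 12664 loci exceeded SlIAA2 and 608 exceeded SlIAA1.

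**Figure D3:**
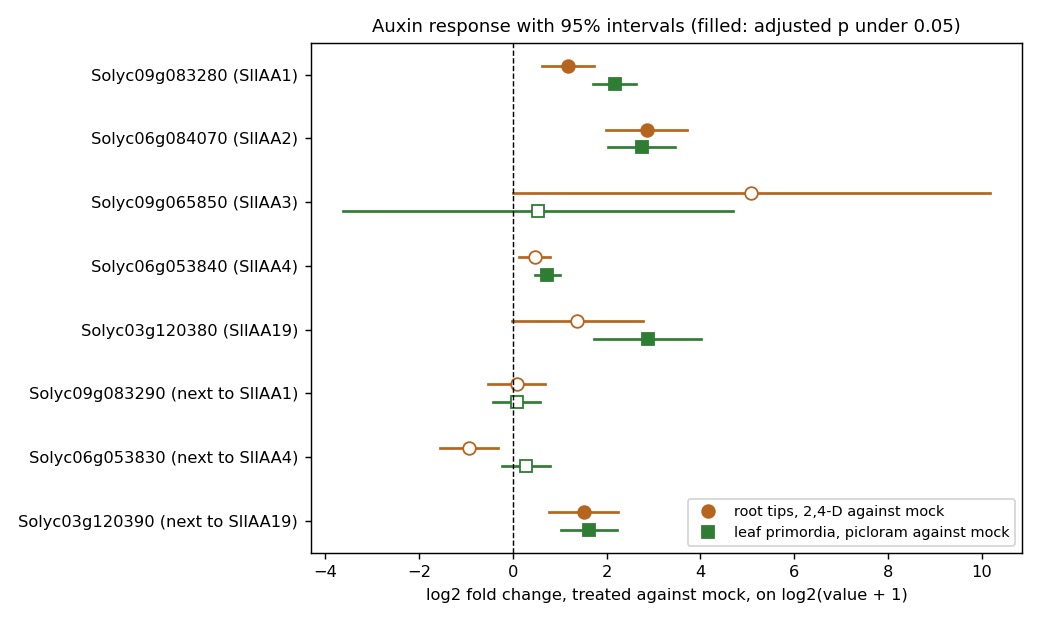
Log2 fold change on log2(value + 1) with its 95% interval for the 5 loci and for 3 Aux/IAA loci next to them by identifier, in root (circles) and leaf (squares), filled where called. SlIAA1 and SlIAA2 are filled in both tissues, SlIAA4 and SlIAA19 in leaf only, and the interval of SlIAA3 spans from -3.61 to 4.69 in leaf.

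Whether the responses differed between the experiments was tested directly, as the root response minus the leaf response. None of the 5 loci was called, against 3.76% of 11313 loci. By limma, 1 of the 5, SlIAA1, had an unadjusted p under 0.05, which 17.0% of all loci had. SlIAA1 differed by -0.998 (95% interval -1.72 to -0.28, limma adjusted p = 0.142), the larger response being that in leaf. SlIAA2 differed by 0.11, with an interval of -1.02 to 1.23 that leaves room for a difference of 2 times in either direction (limma adjusted p = 0.943). SlIAA4 differed by -0.27 (-0.70 to 0.16, limma adjusted p = 0.54) and SlIAA19 by -1.50 (-3.30 to 0.30, limma adjusted p = 0.396). The interval of SlIAA3, -2.03 to 11.1, carries no direction (limma adjusted p = 0.495). So the loci called in leaf and not in root, SlIAA4 and SlIAA19, were not shown to respond differently in the 2 tissues.

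**Figure D4:**
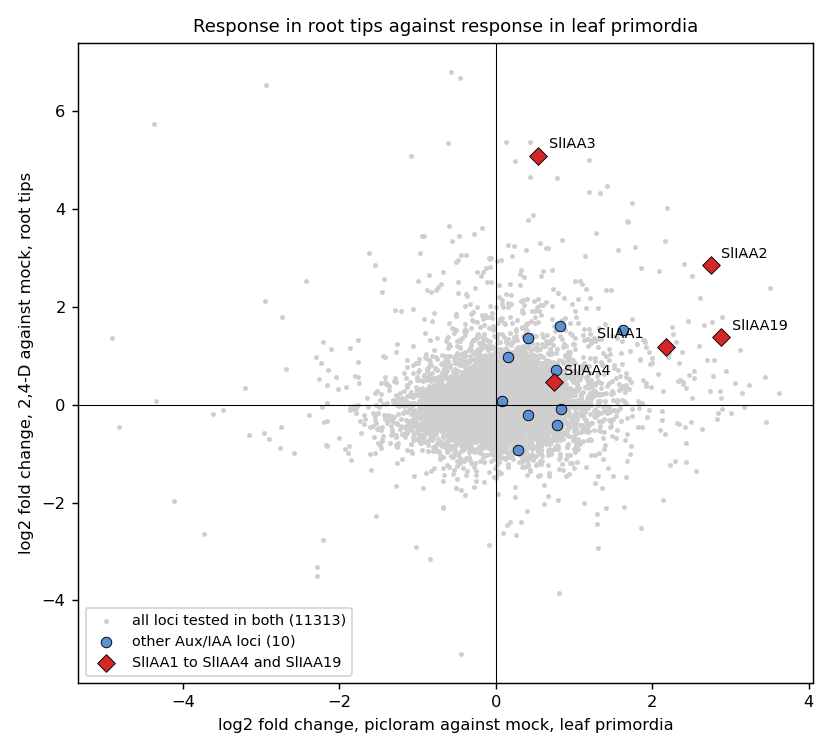
Log2 fold change in root (vertical axis) against that in leaf (horizontal axis) for the 11313 loci tested in both tissues, with the 5 loci as diamonds and 10 other Aux/IAA loci as circles. All diamonds lie above 0 on both axes, SlIAA2 at 2.75 and 2.85, and SlIAA3 sits apart at 0.54 and 5.08.

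Mock levels showed where the loci differed before treatment. SlIAA4 was higher in root tips than in leaf primordia by 1.38 ± 0.14 on the log2 scale (SE, limma adjusted p = 4.42e-06) and SlIAA1 by 1.24 ± 0.23 (SE, limma adjusted p = 0.000603). These were 2 of 5 loci, with 0 lower by limma, against 32.7% of 15761 loci called higher in root and 29.8% called lower (62.5% in all). SlIAA2 differed by -0.20 ± 0.36 (SE, limma adjusted p = 0.648) and SlIAA19 by 0.15 ± 0.58 (SE, limma adjusted p = 0.84), and neither was called. Root libraries had larger totals, and setting all totals equal moved the median of all loci by -0.53. Relative to that median SlIAA4 stood 1.31 higher as deposited and 1.28 higher with equal totals, and SlIAA1 1.17 and 1.15, and both remained called. SlIAA3 had a log2 difference of -2.50 ± 2.12 (SE, limma adjusted p = 0.324). Its sum with Solyc09g065840 was lower in root by limma, at -2.05 (adjusted p = 0.0238), and at -1.10 without mock leaf library 2 (adjusted p = 0.03).

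SlIAA1, SlIAA4 and SlIAA19 have another Aux/IAA locus as the next identifier on the chromosome, and the RefSeq table also places IAA7 beside IAA4 and IAA15 beside IAA19. The neighbours of SlIAA1 and SlIAA4 were not called in either tissue. Solyc09g083290, next to SlIAA1, stood at 636 and 650 normalized counts in mock root and at 880 and 525 on 2,4-D, with a log2 difference of 0.08 ± 0.28 (SE, limma adjusted p = 0.934). In leaf it was at 63.6 to 111 in mock and 82.6 to 108 under picloram (0.08 ± 0.23, SE, limma adjusted p = 0.871). Its mock level was higher in root than in leaf by 2.82 ± 0.25 (SE, limma adjusted p = 1.8e-06), the direction seen for SlIAA1.

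Solyc06g053830, next to SlIAA4, was at 69.8 and 75.2 in mock root and at 29.9 and 47.1 on 2,4-D, and was not called (-0.93 ± 0.29, SE, limma adjusted p = 0.104). In leaf it differed by 0.28 ± 0.23 (SE, limma adjusted p = 0.519). Solyc03g120390, next to SlIAA19, rose in both tissues. It went from 4.14 and 5.36 to 14.4 and 16.3 in root (1.51 ± 0.34, SE, limma adjusted p = 0.0253), a call that ended without any 1 of the 4 root libraries, after quantile normalization, with root fitted alone and with the replicate number as a block (limma adjusted p up to 0.173). In leaf it went from 12.7, 18.8 and 20.2 to 58.4, 56.8 and 48.3 (1.63 ± 0.27, SE, limma adjusted p = 0.00345).

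The rest of the family, 16 other Aux/IAA loci, gave the members' setting. In root 10 were tested, of which 4 rose and 0 fell, with a median of 0.40. Of all root loci tested, 3.48% were called higher and 1.07% lower. The 4 included Solyc04g076850, at 0.96 ± 0.15 (SE, limma adjusted p = 0.0027). In leaf 13 were tested, of which 7 rose and 0 fell, with a median of 0.78. Of all leaf loci tested, 4.89% were called higher and 5.26% lower. Among the called loci, Solyc03g120390 in root and Solyc08g021820 and Solyc06g066020 in leaf met the minimum through treated libraries only, so these counts lean towards a rise as well. Solyc03g120500 rose by 1.60 ± 0.25 in root (SE, limma adjusted p = 0.00326) and Solyc03g121060 by 1.37 ± 0.29 (SE, limma adjusted p = 0.0181), the second not without mock root library 1 or either 2,4-D library, after quantile normalization or without the mean-variance trend (adjusted p up to 0.195). In leaf Solyc07g008020 rose by 2.05 ± 0.37 (SE, limma adjusted p = 0.00527), from 13.4, 24.6 and 20.6 to 83.5, 89.4 and 73.5 normalized counts. Solyc08g021820 rose by 1.52 ± 0.37 (SE, limma adjusted p = 0.024), a call lost without any 1 of 5 leaf libraries, all but mock leaf library 1, and also with leaf fitted alone or the minimum dropped (adjusted p up to 0.0848). Whether the 5 members responded more than the other Aux/IAA loci was not tested.

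Partners of Aux/IAA proteins were taken from lists recalled from the literature and not checked gene by gene, and their counts stand beside the 3.48% of root loci and 4.89% of leaf loci called higher. Of 3 receptor loci of the TIR1/AFB type, all tested, 0 were called by limma in root and 0 in leaf, with 0 at an unadjusted p under 0.05 in each, which 16.3% of root and 24.9% of leaf loci reached. Of the TOPLESS list 5 of 6 were tested, with 0 calls by limma in root (2 at an unadjusted p under 0.05) and 1 rise in leaf, Solyc03g116750 by 0.56 ± 0.13 (SE, limma adjusted p = 0.0203). That call ended in 6 of 21 alternatives, which were omission of mock leaf library 2 or 3 or picloram library 1 or 3, leaf fitted alone and no mean-variance trend (adjusted p up to 0.0776). Of 20 ARF loci 10 were tested in root with 0 calls by limma (2 at an unadjusted p under 0.05), and 15 in leaf, where Solyc01g103050 rose by 0.98 ± 0.17 (SE, limma adjusted p = 0.00408) and Solyc05g047460 by 0.90 ± 0.15 (SE, limma adjusted p = 0.00365). GH3 loci, whose enzymes conjugate auxin to amino acids and which are early auxin targets as well, had 1 rise among 4 tested in root and 2 among 8 in leaf. Solyc02g092820 rose in leaf by 2.59 ± 0.25 (SE, limma adjusted p = 0.000134) and Solyc07g063850 by 1.10 ± 0.15 (SE, limma adjusted p = 0.000785). In root Solyc01g107390 rose by 2.18 ± 0.46 (SE, limma adjusted p = 0.0201), not without any 1 root library or after quantile normalization (adjusted p up to 0.18), and it met the minimum through treated libraries only.

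Likeness of pattern was described by Pearson's correlation of log2(value + 1) over the 10 libraries after the mean of each tissue was subtracted, among 11312 other loci tested in both tissues. The libraries share treatment and depth, so a high value says that a locus followed the same treatment steps. The Aux/IAA locus most like SlIAA1 was Solyc03g120390 (r = 0.963, the locus ranked 8), and the same locus was most like SlIAA2 (r = 0.963, ranked 7). SlIAA4 and SlIAA19 were each other's closest Aux/IAA locus (r = 0.923). SlIAA1 and SlIAA2 correlated at 0.927. SlIAA3 correlated with the other 4 members at 0.0323 to 0.443, and its closest Aux/IAA locus was Solyc04g076850 (r = 0.75, ranked 210).

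Outside the lists, Solyc09g007765 and Solyc04g082200, neither named in the sources used here, had the highest mean correlation with the 5 members (0.827 and 0.823). Solyc04g082200 went from 1783 and 2450 to 9905 and 9152 normalized counts in root, and from 306, 369 and 184 to 2516, 1469 and 1290 in leaf. Treated libraries lay above mock libraries in both tissues, which is the pattern it was chosen for and is given with no test. Its correlation was 0.968 with SlIAA2 and 0.486 with SlIAA3.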

How the data were processed

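The series holds 10 libraries of polyadenylated transcripts in 4 groups, which were taken with their replicate numbers from the sample titles. The deposited table gives normalized counts, a non-negative signal that the authors had already scaled, as judged from its decimals and its steps at low values. The submitters' processing notes list DESeq2 and Salmon 0.8.2 but assign them no step. Which build and annotation served is not given in the sources used here. Between 59.2% and 89.3% of low values per library (below 20 reads, tolerance 0.1 read) were whole multiples of 1 step, so whole reads were not recovered and no count test was run.

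Values were tested as log2(value + 1) with limma 3.58.1 (R 4.3.3), with a mean-variance trend, 1 mean per group and all 10 libraries in 1 fit (6 residual and 5.55 prior degrees of freedom). A locus was tested with at least 10 in at least 2 libraries of a tissue. The difference of responses required this of root and leaf alike, the tissue comparison of at least 1 of them. Tests are 2-sided. Where 1 library was left out the tested loci were kept, and a lone root library was assumed to vary like the other groups. The fit was checked on simulated data with changes placed only in loci of higher mock level, so the check does not cover SlIAA2 and SlIAA19. Alternatives changed the pseudocount, the minimum, the scaling, the moderation, the libraries in the fit or the replicate block.

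The members, lists and tests were chosen with earlier results of these data known. Named loci were the members, Aux/IAA loci next to them, up to 3 called loci of largest fold change among other Aux/IAA loci and up to 2 per further list, the most alike Aux/IAA locus and 2 loci outside the lists. Solyc09g065840 and the 5 leaf-type loci were added after values had been seen. Of 20 ARF loci, 18 are in the table.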

Additional observations from a re-analysis of the deposited data

Results flagged for a closer look

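The responses of several loci named beside the members differed between the experiments by the test of the difference itself. For the Aux/IAA locus Solyc04g076850 the root response was higher than the leaf response by 0.80 (limma adjusted p = 0.0387). That locus was not among those followed through the alternatives. The GH3 locus given next was named for its leaf call on these same libraries, which favours a difference of this kind. The GH3 locus Solyc07g063850 had a root response lower than its leaf response by -1.53 (limma adjusted p = 0.00347, and called in all 19 alternatives), with 14.5 and 19.0 normalized counts in mock root against 12.0 and 12.2 on 2,4-D, and 228 to 260 in mock leaf against 480 to 564 under picloram. Solyc09g007765, the locus most like the 5 members in pattern and chosen for that on these same libraries, had a difference of -1.03 (limma adjusted p = 0.0284), lost in 6 of 20 alternatives, which include leaving out mock root library 1 or 2, 2,4-D library 2 or picloram library 1 or 2 (adjusted p up to 0.149). None of the 5 Aux/IAA loci was flagged, and groups of 2 and 3 libraries are too small for the test of outlying samples.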

How the results depend on the processing

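In leaf 4 members rose under all 21 alternatives, and in mock tissue SlIAA1 and SlIAA4 were higher in root under all 20. In root 2 members rose: SlIAA2 under all 21, with 1 to 2 called when a library was left out, 1 after quantile normalization, 1 without the mean-variance trend (SlIAA1 lost in each) and 4 with each tissue fitted alone. Over all loci, the root count of 576 became 327 after quantile normalization, 1141 with each tissue fitted alone and 252 to 669 when a library was left out. The lowest counts came without a root library (252 and 362 without mock 1 and 2, 256 and 278 without 2,4-D 1 and 2). The leaf count of 1463 became 975 without the trend and 875 to 1591 when a library was left out (958, 875 and 959 without picloram 1, 2 and 3). The count for the difference, 425, became 223 without the trend and 204 to 477 when a library was left out (204, 238, 209 and 212 without the 4 root libraries). The tissue count of 9855 was 8171 to 9834 when a library was left out and 8742 to 10654 under the other alternatives. The cause was not tested. With equal totals 61.5% of leaf calls rose, in place of 48.2%, and 32.2% of tissue calls were higher in root, in place of 52.4%. Deviations of same-numbered libraries correlated at r = 0.108 in root, over 2 libraries a group, and at -0.0266 to 0.0725 in leaf. The labels do not say what a number marks, although in root the leaf-type sums also went by number, so the numbers were not taken as pairs. With the replicate number as a block, 519 loci were called in root, 1391 in leaf, 414 for the difference and 9532 between tissues, and no member gained or lost a call. With the minimum at 20, SlIAA19 was not tested in root. Depth limits SlIAA2, at 3.16 to 5.11 normalized counts in mock, and SlIAA19.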
